A study of Mus musculus with 2 samples.

Results

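The genes described here are 31 genes of homologous recombination, the Fanconi anaemia pathway and mismatch repair, with the checkpoint kinases that act beside them. They were taken by name from a table of 54532 genes measured by RNA sequencing in CT26, a mouse colon carcinoma cell line, and each name gave 1 row. One culture was given lentivirus that expresses mouse Oct4, encoded by Pou5f1, together with human SOX2, and is called Oct4/SOX2 here. The empty-vector control culture was given lentivirus without either gene. Both were grown in the same medium with serum for 4 days, the time at which the first culture showed its altered phenotype. Each group holds 1 library, so no difference below has a replicate check, and no test of the treatment was possible. The sources used here do not give the promoter of the vectors or the share of cells carrying them.

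Homologous recombination repairs double-strand breaks by copying the intact sister chromatid. A recombinase is loaded on resected DNA by mediator proteins and then searches for and invades the matching strand. The Fanconi pathway deals with crosslinks between the DNA strands: a core complex attaches ubiquitin to the Fancd2 and Fanci proteins, and recombination proteins finish the repair. Mismatch repair removes base mismatches and small loops left by replication. Atm and Atr are the kinases that sense breaks and stalled forks, and Chek1 and Chek2 are kinases they activate. Many of these genes are known to be transcribed most strongly around S phase.

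Values are FPKM, fragments per kilobase of gene length at a common depth, which allows levels of different genes to be compared roughly per length. The deposited length was 23629 bases for Atr, beside 7923 coding bases, and 10338 for Atm, beside 9198. Ranks of level between genes depend on these lengths, and the plain ratio of FPKM between the libraries does not. The ratio of FPKM + 1 and the limit of 1 FPKM, both used for counting below, do depend on them. The libraries held 32262408 (control) and 31521115 (Oct4/SOX2) gene-assigned reads, recovered from the FPKM values, and the 31 genes had between 115 and 3709 reads each. Pou5f1 had 0 reads in the empty-vector control library and 12406 in the Oct4/SOX2 library, while mouse Sox2 had 929 and 1525. The vector carries the human gene, and whether its reads were counted under mouse Sox2 was not tested. Of 9 colon epithelial markers, Krt18 and Krt20 reached 1 FPKM, Cdh1 and Cdx1 had 0 reads in both libraries, and the 9 summed to 30.8 FPKM in the empty-vector control and 39.8 in Oct4/SOX2. Krt18 was 1.34-fold lower and Krt20 1.89-fold higher. Of 7 fibroblast markers 5 were measured, with sums of 269 and 360 FPKM, and they did not move together. Col1a2 stood at 185 and 306 FPKM, while 3 of the 5 were lower, among them Pdgfrb (2.85-fold) and Col1a1 (1.55-fold). Among leukocyte markers Cd3e had 0 reads in both libraries (6-gene sums 6.35 and 4.86 FPKM). Cd68 of that list stood at 5.53 FPKM in the empty-vector control and 4.27 FPKM in Oct4/SOX2, and Lyz2 had 34 and 24 reads. Among endothelial markers Pecam1 and Cdh5 had 0 reads in both (4-gene sums 0.120 and 0.580 FPKM). Tek of that list had 17 reads in the empty-vector control and 86 in Oct4/SOX2, below 1 FPKM in both. The part of these markers in the differences below was not tested. In a bulk sample, a change in the share of cells that express a gene and a change in its RNA per cell cannot be told apart.

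The 31 genes were mostly somewhat higher in the Oct4/SOX2 library, by about 1.3-fold at the middle of the list, and none was 2-fold different on the scale used for counting. That scale is log2 of FPKM + 1 in the Oct4/SOX2 culture minus the same in the empty-vector control, and it understates the difference of genes at these low levels. On it 25 of 31 genes lay above 0 and 6 below, against 48.3% above 0 among the 12401 measured genes, those that reached 1 FPKM in either library. At least 1.3-fold higher were 11 of the 31, beside 12.8% of all measured genes. At least 1.3-fold lower were 0 of 31, beside 13.2%. At least 2-fold higher or lower were 0, beside 2.42% and 1.85%. The median was 0.32 over the 31 genes and -0.01 over all measured genes. With a pseudocount of 5 FPKM the 11 became 2 of the 30 measured genes, beside 5.68% of all measured genes at that setting, so the count is then near the background.

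Counting error alone was small for most of them. From here on a fold is the plain ratio of FPKM values, and its exact 95% counting interval, computed from the reads, covers counting error only and not the variation between cultures. The interval lay above 1 for 23 of the 31 genes, below 1 for Atm and Fancl, and held 1 for the other 6. Among all measured genes 32.1% had an interval above 1 and 35.2% one below 1. Summed over the 31 genes the level was 126 FPKM in the empty-vector control and 162 FPKM in Oct4/SOX2, 1.29-fold higher.

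**Figure D1:**
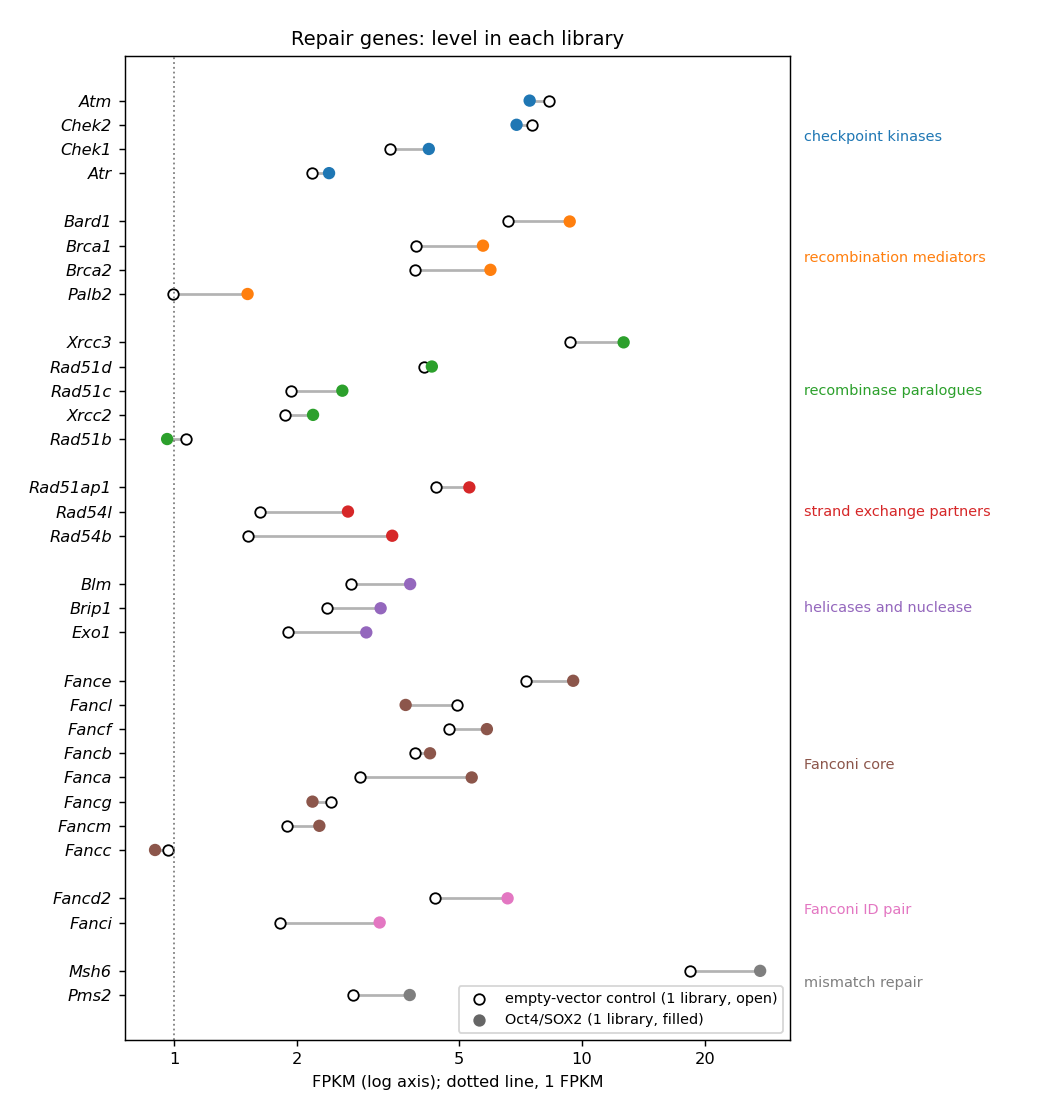
Level of each of the 31 genes in FPKM (log axis) in the empty-vector control library (open circles) and in the Oct4/SOX2 library (filled circles, coloured by role), 1 library each. Msh6 has the highest level in both libraries (18.4 and 27.4 FPKM), and Fancc is the gene below 1 FPKM in both (0.963 and 0.897).

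Promoter sequence was looked at because so many of these genes differed the same way. RefSeq windows of 300 bases (250 before the start site and 50 after it, GRCm38.p6) were matched for 26 of the 31 symbols, that is all but Rad51d, Rad54b, Xrcc2, Exo1 and Fancd2. The letters searched, on both strands, were TTTCCCGC, TTTCGCGC, TTTGCCGC, TTTGGCGC and GCGGGAA for E2F factors, the regulators of S phase genes. The last overlaps the reverse complement of the first. Such a match stood in 12 of the 26 windows, or 46.2%, and in 11.2% of the windows of 8180 measured protein-coding genes and 5.78% of all 27025. It was present in 4 of the 8 matched genes at least 1.3-fold higher and in 3 of the 6 with a ratio below 0. The RefSeq starts of Bard1, Blm, Chek1, Rad51c, Fanci, Fancc, Fancg and Fancl lie more than 100 bases from the deposited gene starts. Their windows were counted all the same. The letters CCAAT were in 18 of 26 windows (69.2%, against 39.9% of measured protein-coding genes). TTTGAA, the cell cycle element named CHR, was in 1 of 26 (11.8%). The octamer ATGCAAAT, bound by Oct4 and its relatives, was in 0 of 26 (1.25%), and the SOX letters CATTGT in 1 of 26 (6.58%), that of Fancl. The median GC content was 58.2% in the 26 windows and 61.3% in those of measured protein-coding genes.

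Printed below are the 3 highest and the 3 lowest ratios among the matched genes whose RefSeq start lies within 100 bases of the deposited gene start. Each runs 5′ to 3′ on the gene's strand, from 250 bases before the start site to 30 after it, with the E2F letters in capitals. Among these 6 the letters occur in genes with log2 ratios above and below 0. Fanca, Msh6 and Brca2 were higher in the Oct4/SOX2 library, and Rad51b, Chek2 and Atm were lower by small amounts. The counting intervals of Rad51b and Chek2 hold 1. Fancl, with the lowest ratio of the 26 (log2 -0.34), is left out by the 100-base limit, and its window holds no such letters.
Fanca, chr8:123318547-123318826, minus strand: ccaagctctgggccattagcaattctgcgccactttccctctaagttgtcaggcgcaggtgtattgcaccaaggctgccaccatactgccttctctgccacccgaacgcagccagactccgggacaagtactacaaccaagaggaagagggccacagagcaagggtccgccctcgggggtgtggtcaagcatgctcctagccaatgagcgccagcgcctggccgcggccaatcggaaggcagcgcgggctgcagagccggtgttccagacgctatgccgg
Msh6, chr17:87974800-87975079, plus strand: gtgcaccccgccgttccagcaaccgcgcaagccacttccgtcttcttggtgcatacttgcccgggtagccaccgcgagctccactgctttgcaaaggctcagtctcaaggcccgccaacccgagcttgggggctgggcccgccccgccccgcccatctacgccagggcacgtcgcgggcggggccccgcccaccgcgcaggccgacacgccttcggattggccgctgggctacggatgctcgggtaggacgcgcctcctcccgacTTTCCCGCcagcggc
Brca2, chr5:150522371-150522650, plus strand: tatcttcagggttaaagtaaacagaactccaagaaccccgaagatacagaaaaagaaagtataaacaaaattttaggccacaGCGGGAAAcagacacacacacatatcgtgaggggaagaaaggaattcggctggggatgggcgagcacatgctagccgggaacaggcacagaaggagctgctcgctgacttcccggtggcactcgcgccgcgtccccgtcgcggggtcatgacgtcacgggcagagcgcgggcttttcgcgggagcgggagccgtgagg
Rad51b, chr12:79297032-79297311, plus strand: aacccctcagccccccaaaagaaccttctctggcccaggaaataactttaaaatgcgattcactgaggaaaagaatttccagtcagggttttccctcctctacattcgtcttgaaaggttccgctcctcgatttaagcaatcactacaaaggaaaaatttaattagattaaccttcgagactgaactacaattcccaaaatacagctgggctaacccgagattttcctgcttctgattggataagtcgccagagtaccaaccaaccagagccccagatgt
Chek2, chr5:110839733-110840012, plus strand: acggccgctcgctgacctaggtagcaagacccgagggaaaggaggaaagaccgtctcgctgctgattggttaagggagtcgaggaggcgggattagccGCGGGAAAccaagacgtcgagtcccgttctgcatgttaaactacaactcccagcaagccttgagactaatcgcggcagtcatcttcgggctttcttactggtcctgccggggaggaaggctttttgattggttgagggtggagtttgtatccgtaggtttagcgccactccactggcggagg
Atm, chr9:53536642-53536921, minus strand: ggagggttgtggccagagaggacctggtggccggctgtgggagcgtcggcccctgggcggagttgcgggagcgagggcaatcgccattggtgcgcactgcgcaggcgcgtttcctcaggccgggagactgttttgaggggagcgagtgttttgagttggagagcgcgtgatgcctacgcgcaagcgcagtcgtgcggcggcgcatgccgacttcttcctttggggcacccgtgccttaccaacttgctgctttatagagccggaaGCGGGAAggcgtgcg
With the start site numbered as the first base, the match began at base 16 in Msh6 and in Atm, at -168 in Brca2 and at -152 in Chek2. The Fanca and Rad51b windows hold no such letters, and Fanca had the highest ratio of the 26.

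The 4 checkpoint kinase genes differed little and in both directions. Atm (9:53439149-53536740, 64 exons), the kinase that responds to double-strand breaks, was at 8.29 FPKM in the empty-vector control and 7.44 FPKM in Oct4/SOX2. That is 1.11-fold lower (95% counting interval 1.05 to 1.18). Chek2, the effector kinase downstream of Atm, stood at 7.56 and 6.91 FPKM, 1.09-fold lower with an interval that holds 1 (0.983 to 1.22). Both were thus on the lower side, and both were among the 6 most expressed of the 31 genes in each library. Atr, the kinase of stalled forks, was on the other side at 2.18 and 2.40 FPKM, 1.10-fold higher (1.03 to 1.18). Chek1, its effector kinase, stood at 3.39 and 4.21 FPKM, 1.24-fold higher (1.10 to 1.40). None of the 4 reached 1.3-fold, and summed they were at 21.4 and 21.0 FPKM.

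The genes that bring the recombinase to resected DNA were higher together. All 4 had intervals above 1, and their ratios lay between 1.41 and 1.53. Brca1 (11:101488764-101551955, 23 exons), a ubiquitin ligase subunit that promotes resection and mediator assembly, was at 3.92 and 5.72 FPKM, from 1068 and 1555 reads, 1.46-fold higher (1.35 to 1.58). Its partner subunit Bard1 stood at 6.60 and 9.33 FPKM, 1.41-fold higher (1.31 to 1.52). Brca2 (5:150522630-150570329, 27 exons), which loads the recombinase, was at 3.90 and 5.97 FPKM from 1697 and 2593 reads. This is 1.53-fold higher (1.44 to 1.63). Palb2, the bridge between Brca1 and Brca2, was far lower in level at 0.994 and 1.51 FPKM and 1.52-fold higher (1.29 to 1.80). Brca1 and Brca2 stood at nearly the same level per length in each library.

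The 5 paralogues of the recombinase, which form small complexes that stabilise its filament, did not differ alike. Xrcc3, the most expressed of them, was at 9.34 and 12.7 FPKM, 1.35-fold higher (1.24 to 1.48). Rad51c, its partner and the one shared by both paralogue complexes, was at 1.94 and 2.58 FPKM, 1.33-fold higher (1.14 to 1.57). So the pair that makes up 1 complex was higher by similar amounts. Of the other complex, Xrcc2 stood at 1.87 and 2.19 FPKM, 1.17-fold higher (1.002 to 1.36), and Rad51d at 4.09 and 4.28 FPKM, 1.05-fold higher with an interval that holds 1 (0.923 to 1.19). Rad51b was at 1.07 and 0.961 FPKM from 128 and 115 reads, 1.11-fold lower, and its interval of 0.857 to 1.44 leaves the direction undetermined at this depth.

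The highest ratio of the 31 was in a partner of the recombinase in strand exchange. Rad54b (4:11558922-11615805, 15 exons), a motor protein that remodels DNA during strand invasion, was at 1.52 FPKM in the empty-vector control and 3.43 FPKM in Oct4/SOX2, from 280 and 631 reads. It was 2.26-fold higher (1.96 to 2.61), which is 0.81 on the log2 scale of FPKM + 1. Its relative Rad54l stood at 1.62 and 2.67 FPKM, 1.64-fold higher (1.45 to 1.87), and 15.4% of its exon bases are shared with Lrrc41 on the opposite strand. The control levels of the 2 motor genes were thus close and their levels in Oct4/SOX2 apart. Rad51ap1, which stimulates strand invasion, stood at 4.37 and 5.30 FPKM, 1.21-fold higher (1.09 to 1.34). Rad54b shares 2068 of its 5782 exon bases with Fsbp on the same strand, and the sources used here do not give how reads in shared bases were counted. Fsbp itself stood at 0.244 and 0.295 FPKM.

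The helicases Blm and Brip1 and the nuclease Exo1 were each higher. Blm, the Bloom syndrome helicase that dissolves recombination intermediates, was at 2.72 and 3.79 FPKM, 1.39-fold higher (1.27 to 1.53). Brip1, a helicase that binds Brca1 and also belongs to the Fanconi genes, stood at 2.37 and 3.21 FPKM, 1.35-fold higher (1.21 to 1.51). Exo1, which resects breaks and removes the mismatched strand in mismatch repair, was at 1.90 and 2.96 FPKM, 1.56-fold higher (1.39 to 1.75). On the FPKM + 1 scale Exo1 passed 1.3-fold, and Blm and Brip1 did not.

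**Figure D2:**
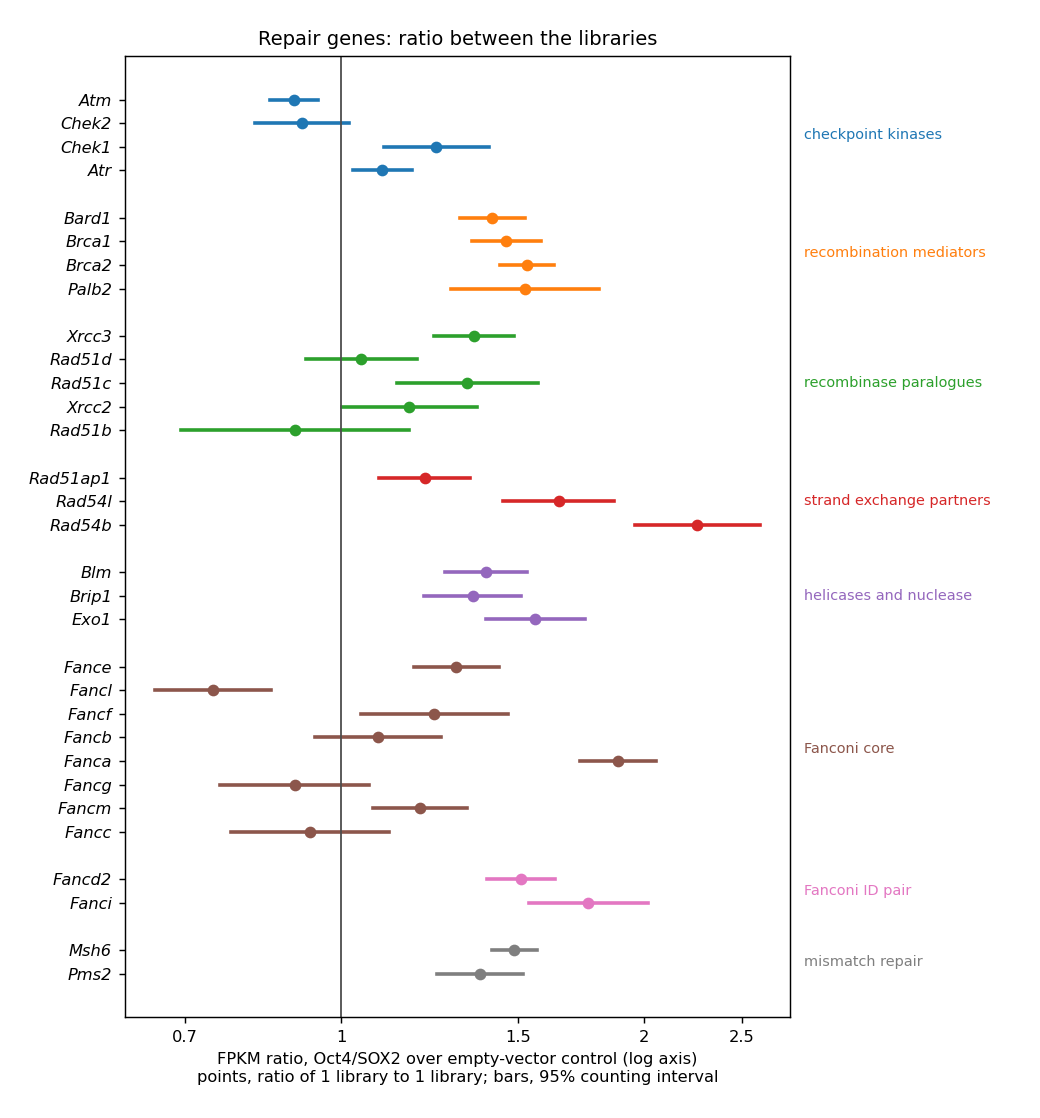
Plain FPKM ratio of each gene, Oct4/SOX2 over empty-vector control (log axis), with its 95% counting interval as a bar, grouped and coloured by role. The 4 mediators lie between 1.41 and 1.53, while the Fanconi core runs from Fancl, 1.34-fold lower, to Fanca, 1.88-fold higher.

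Both substrates of the Fanconi core complex, which are clamped on DNA as a pair, were higher, while the core genes differed both ways. Fancd2 (6:113531682-113597017, 44 exons) was at 4.35 and 6.57 FPKM, 1.51-fold higher (1.40 to 1.63), and Fanci (7:79391929-79450264, 38 exons) at 1.81 and 3.19 FPKM, 1.76-fold higher (1.54 to 2.02). In the 8 core genes ratios ran both ways, with 5 above 1 and 3 below. Fanca (8:123268300-123318576, 43 exons), a large scaffold subunit, was at 2.85 and 5.37 FPKM from 797 and 1498 reads. It was 1.88-fold higher (1.73 to 2.05), the only core gene past 1.3-fold on the FPKM + 1 scale. Fancl, the ubiquitin ligase subunit that modifies Fancd2 and Fanci, was the lowest of the 31 genes, at 4.95 and 3.70 FPKM from 533 and 397 reads, 1.34-fold lower (1.17 to 1.53). The ligase subunit and its substrates therefore stood on opposite sides of 1, with intervals that do not meet.

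The remaining core subunits lay between them. Fance, which contacts Fancd2, was at 7.31 and 9.52 FPKM, 1.302-fold higher (1.18 to 1.43). Fancf, a single-exon gene for an adaptor subunit, was at 4.72 and 5.85 FPKM, 1.24-fold higher (1.05 to 1.47). Fancm, the DNA translocase that anchors the complex, stood at 1.89 and 2.27 FPKM, 1.20-fold higher (1.08 to 1.33). These 3 had intervals above 1. Fancb, which binds Fancl, stood at 3.90 and 4.24 FPKM, a ratio of 1.09 (0.943 to 1.26). Fancg, a partner of Fanca, was at 2.43 and 2.18 FPKM, 1.11-fold lower (0.938 to 1.32). Fancc, which did not reach 1 FPKM in either library, was at 0.963 and 0.897 FPKM, 1.07-fold lower (0.897 to 1.29). For Fancb, Fancg and Fancc a difference was not detectable at this depth. Several genes of the 31 share exon bases with a protein-coding gene on the opposite strand, and whether counting used strand is not given. Over 10% of the exon bases are shared by Fanci with Polg (16.0%), Rad54l with Lrrc41 (15.4%), Fancf with Gas2 (15.0%), Fancl with Vrk2 (13.7%) and Fanca with Zfp276 (10.5%). Lrrc41 stood at 13.7 and 11.3 FPKM, far above Rad54l, and Gas2 at 2.60 and 1.88 FPKM. Vrk2 stood at 0.746 and 1.40 FPKM, Polg at 7.11 and 8.77 FPKM and Zfp276 at 6.03 and 5.23 FPKM. The part of shared reads in these ratios was not tested.

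Both mismatch repair genes were higher. Msh6 (17:87975050-87990883, 10 exons), the subunit that recognises base mismatches, was at 18.4 and 27.4 FPKM from 2500 and 3709 reads. It was 1.49-fold higher (1.41 to 1.56) and the most expressed of the 31 genes in both libraries. Pms2, the endonuclease subunit that nicks the strand to be replaced, stood at 2.75 and 3.78 FPKM, 1.37-fold higher (1.25 to 1.52). Of 5 further mismatch repair genes 4 had a log2 ratio above 0, and 2 were at least 1.3-fold higher on the FPKM + 1 scale, with a median of 0.05. Of all measured genes 48.3% lay above 0 and 12.8% were at least 1.3-fold higher. Pms1, a relative of Pms2, had the highest plain ratio of them at 1.13 and 2.24 FPKM, 1.99-fold higher (1.72 to 2.31). Mlh3 had the lowest, at 5.17 and 4.61 FPKM, 1.12-fold lower (1.03 to 1.22).

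Other genes of the same pathways, from lists that do not overlap the 31, were counted on the same scale. On it 48.3% of all measured genes lay above 0, 12.8% were at least 1.3-fold higher and 13.2% at least 1.3-fold lower. Of 29 further recombination genes, all measured, 22 had a log2 ratio above 0, 5 were at least 1.3-fold higher and 0 lower by that much, with a median of 0.16. Rpa2, a subunit of the single-strand binding complex, was the highest on the FPKM + 1 scale, at 7.79 and 12.9 FPKM and a plain ratio of 1.65 (1.51 to 1.81), and Rmi2, of the complex that works with Blm, had the highest plain ratio, 1.77 (1.43 to 2.19), at 0.969 and 1.71 FPKM. Sfr1, a recombinase accessory gene, was the lowest at 79.3 and 66.0 FPKM, 1.20-fold lower (1.15 to 1.26). Of 12 measured among 13 further Fanconi genes, 5 were at least 1.3-fold higher and 1 at least 1.3-fold lower, with a median of 0.21. In that list Faap24, the partner of Fancm, was the highest on the FPKM + 1 scale, at 10.6 and 15.9 FPKM, 1.502-fold higher (1.36 to 1.66). Fan1, a crosslink nuclease gene, was at 1.47 and 0.858 FPKM, 1.71-fold lower (1.41 to 2.09). Among 13 partners of the checkpoint kinases 12 had a ratio above 0, 3 of them at least 1.3-fold higher, with a median of 0.22. Clspn, the adaptor through which Atr activates Chek1, was the highest at 3.95 and 8.67 FPKM, 2.20-fold (2.03 to 2.38). Rad9a, of the checkpoint clamp, was the lowest at 18.2 and 12.5 FPKM, 1.46-fold lower (1.33 to 1.60).

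**Figure D3:**
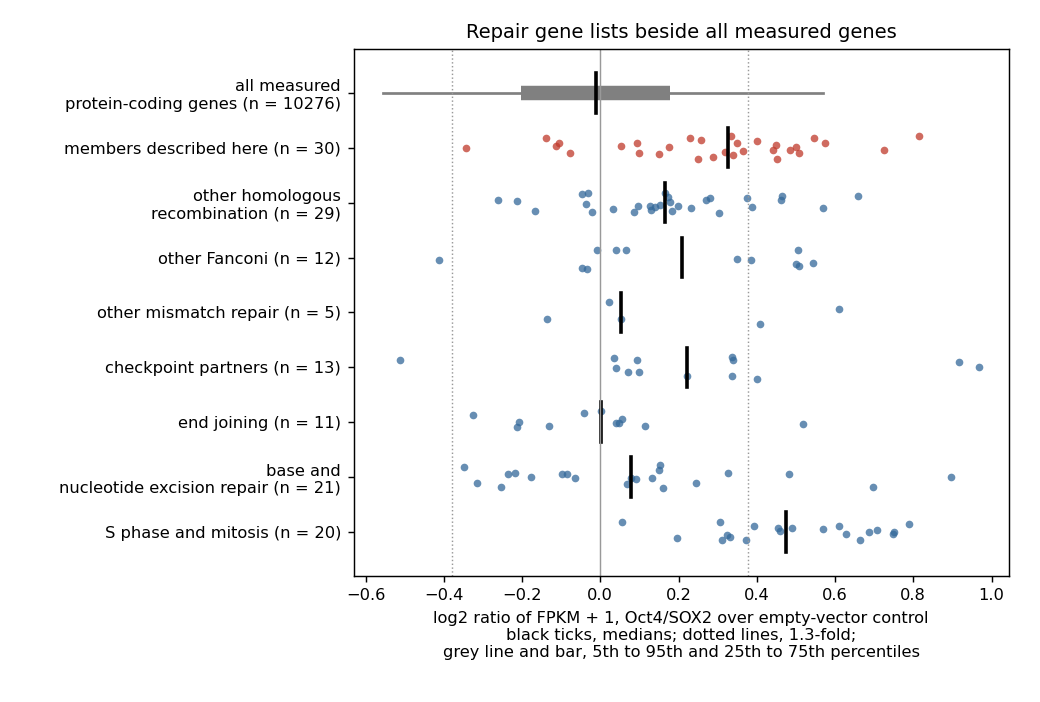
Log2 ratio of FPKM + 1, Oct4/SOX2 over empty-vector control, for each measured gene of the described list (red), of 7 further lists (blue) and for all 10276 measured protein-coding genes (grey, 5th to 95th and 25th to 75th percentiles). Black ticks are medians, 0.33 for the 30 measured of the 31 genes, 0.00 for end joining and 0.47 for S phase and mitosis.

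The further mismatch repair genes, end joining and excision repair had medians nearer to that of all genes than the further recombination and Fanconi genes did. Of 11 end joining genes 6 had a ratio above 0 and 1 was at least 1.3-fold higher, with a median of 0.00. In that list the polymerase gene Polm stood at 4.67 and 7.12 FPKM, and Dclre1c, the gene of the nuclease Artemis, at 3.22 and 2.37 FPKM. Summed, end joining genes were at 83.8 and 83.0 FPKM. Of 21 base and nucleotide excision repair genes 12 had a ratio above 0 and 3 were at least 1.3-fold higher, with a median of 0.08. The counts for end joining and excision repair are near the shares of all measured genes, 48.3% above 0 and 12.8% at least 1.3-fold higher. Among the excision repair genes the glycosylase genes Neil3 and Neil1 stood at the ends on the FPKM + 1 scale. Neil3 was at 2.44 and 5.41 FPKM, 2.21-fold higher (1.97 to 2.49), and Neil1 at 4.14 and 3.04 FPKM, 1.36-fold lower (1.12 to 1.66). By plain ratio the damage recognition gene Ddb2 was lowest, at 1.90 and 1.33 FPKM, 1.43-fold lower (1.12 to 1.83). The difference between these lists and the 31 genes was not tested, since the lists are compared in 1 library per group.

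Genes of S phase and mitosis differed in the same direction as the repair genes. All 20 had a log2 ratio above 0, beside 48.3% of all measured genes. At least 1.3-fold higher were 13, beside 12.8%, and the median was 0.47. Ccne1, the cyclin that starts S phase, had the highest ratio on the FPKM + 1 scale, at 11.1 and 19.8 FPKM, which is 1.79-fold higher (1.66 to 1.95) as a plain ratio. By plain ratio Ccne2 (1.82-fold) and Cdc6 (1.82-fold) stood slightly above it, with intervals that overlap its own. The replicative helicase gene Mcm2 was the lowest on both scales, at 29.0 and 30.1 FPKM. The summed level of the 20 was 656 FPKM in the empty-vector control and 899 FPKM in Oct4/SOX2, 1.37-fold higher. The part of cell cycle phase in the repair genes' ratios was not tested.

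Several repair genes start back to back with another gene, and the values of both genes of such pairs were set side by side. A protein-coding gene on the opposite strand starts within 1000 bases of the start of 13 of the 31 genes, and 12 of these neighbours reached 1 FPKM in a library. In 11 of the 12 pairs the repair gene had the higher log2 ratio of FPKM + 1, with medians of 0.30 for the repair genes and -0.13 for the neighbours. Since 25 of the 31 repair genes lay above 0, the count of pairs is not independent of that earlier count. None of the 12 neighbours was at least 1.3-fold higher, beside 12.8% of all measured genes. A ratio below 0 was seen in 7 of the 12, while 48.3% of all measured genes lay above 0. For so few genes both counts are near the shares of all genes. Nbr1, an autophagy receptor gene 194 bases from the start of Brca1, was at 23.6 and 20.7 FPKM, and Emc3, a membrane protein insertion gene 30 bases from the start of Fancd2, at 30.97 and 31.6 FPKM. D6Wsu163e, 375 bases from the start of Rad51ap1, was at 9.73 and 7.09 FPKM. The exception was Atm, whose neighbour Npat, a histone gene activator, was at 7.38 FPKM in both libraries.

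**Figure D4:**
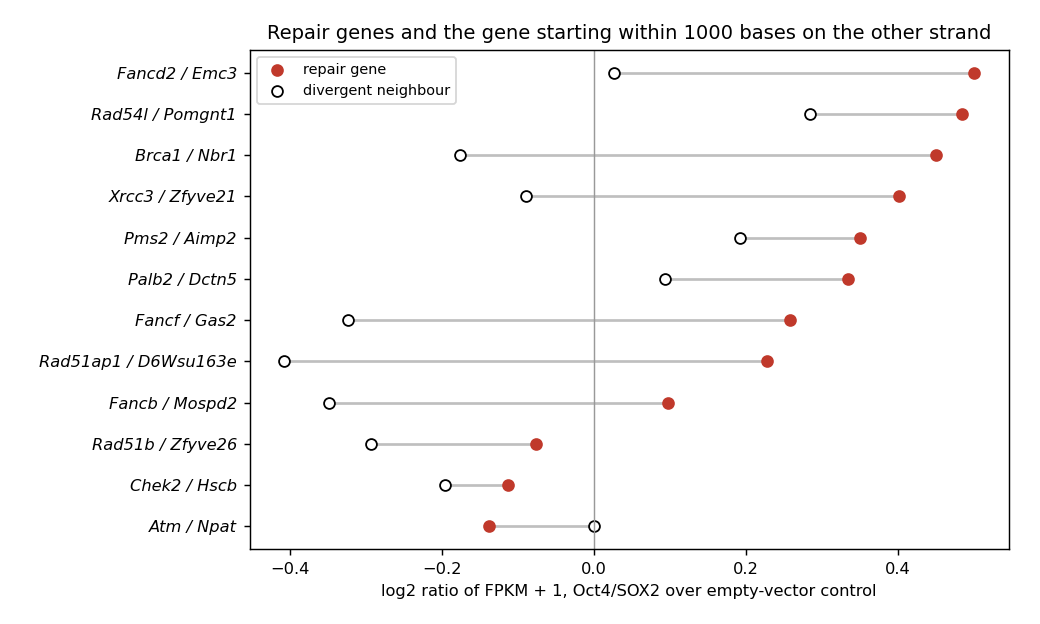
Log2 ratio of FPKM + 1, Oct4/SOX2 over empty-vector control, for 12 repair genes (red) and for the measured gene that starts within 1000 bases on the other strand (open). The repair gene lies to the right of its neighbour in 11 pairs, and to the left in the Atm and Npat pair.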

How the data were processed

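Total RNA of CT26 cells was sequenced after NEBNext Ultra library preparation, per the labels' protocols, with 1 library per group. CASAVA, HISAT2, featureCounts 1.5.0-p3 and the build GRCm38 are named per the submitters' processing notes. The authors deposited FPKM values for 54532 genes with gene lengths. The formula, annotation release, strand setting and treatment of multiply mapped reads are not stated in those notes or the labels. In each library 100% of the products of FPKM and gene length were whole multiples of their smallest value, within 0.001 of a read, and these multiples were taken as reads.

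The measure was the log2 ratio of FPKM + 1. Genes that reached 1 FPKM in either library are called measured, and genes were counted by size, at 2-fold and 1.3-fold. Plain ratios have exact conditional binomial (Clopper-Pearson) 95% intervals, for counting error alone, as reads copied by PCR are not separate molecules. No test across samples was possible. The intervals were tried on simulated reads with known folds that varied by counting error only, which is the setting they assume. That trial does not cover variation between cultures or PCR copies. The members, lists and rules were chosen with earlier results of these data known. All 31 members are named. From each further list the rule named genes at least 2-fold different on the FPKM + 1 scale, of which there were 0. It also named the highest and lowest ratio on that scale. Nbr1, Emc3, D6Wsu163e, Npat, Rmi2, Ccne2, Cdc6, Ddb2 and the overlapping genes were chosen after their values were seen. Exons, overlaps and neighbours come from GENCODE M21, on the same build, where 30 of the 31 genes had the deposited coordinates. Alternatives were other pseudocounts, filters and scalings. The work used scipy 1.17.1 and numpy 2.4.6 with pandas 2.3.3 under Python 3.11.15, and matplotlib 3.10.9 for figures.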

Additional observations from a re-analysis of the deposited data

How the results depend on the processing

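With a pseudocount of 5 FPKM 2 of the 30 measured genes were at least 1.3-fold higher instead of 11, beside 5.68% of all measured genes, and the median log2 ratio was 0.16 instead of 0.33. With 0.1 FPKM 16 were at least 1.3-fold higher, beside 16.3%, 1 gene, Rad54b, was at least 2-fold higher and 1 gene, Fancl, at least 1.3-fold lower. With a filter of 5 FPKM 12 genes were left, 7 of them at least 1.3-fold higher, beside 11.1%. The 4 changes of scaling, no filter, and centring within classes of length left between 11 and 12 genes at least 1.3-fold higher, beside 8.42% of all genes with no filter and between 13.5% and 14.3% with the others. No gene changed the sign of its ratio under any of the 9 alternatives in which it was measured. Other pseudocounts and filters cannot change a sign, so only the scalings and centrings could have done so. Fancc was compared only in the setting with no filter, which leaves its value as it was. No paired analysis was possible because each group holds 1 library, and no library could be left out. Depth limits Rad51b, Rad51d, Chek2, Fancb, Fancc and Fancg, whose intervals hold 1.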

Other observations

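Some other genes of the further lists had high plain ratios and were chosen after their values were seen. Timeless, a replication fork protection gene, was at 4.39 and 9.16 FPKM in the empty-vector control and the Oct4/SOX2 library, 2.09-fold higher (95% counting interval 1.92 to 2.27). Ung, the uracil glycosylase gene, was at 1.47 and 3.002 FPKM, 2.05-fold higher (1.76 to 2.39). Poln, a translesion polymerase gene from the Fanconi list, had 22 reads in the empty-vector control and 171 in Oct4/SOX2. It was 7.79-fold higher (4.98 to 12.8), at 0.127 and 0.990 FPKM and so just outside the measured set. Poln shares 108 of its 5423 exon bases with Haus3 on the same strand, which was at 8.64 and 10.6 FPKM.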
